A study of Mus musculus with 9 samples.

Results

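The cell cycle genes described here are 34 genes chosen by symbol from the 55453 genes in the count table, and all 34 passed the filter on low counts that left 19412 genes to test. By role, 13 act in DNA replication or its supply, 12 control entry into and passage through mitosis, and 9 belong to the mitotic machinery or mark dividing cells. Polyadenylated RNA of the whole aorta was sequenced from 9 mice of the C57BL/6J strain, 3 per genotype. The Itga8-Cre group has Itga8-CreERT2, a newly made Cre recombinase that acts after tamoxifen and is named for the integrin alpha 8 gene. The Myh11-Cre group has Myh11-CreERT2, a widely used inducible Cre named for smooth muscle myosin heavy chain. The Wild Type group has neither. The labels name no floxed target allele, tamoxifen dose, age, sex or batch for any of the 3 groups, so a genotype group here is defined by its Cre alone. The series was designed to set the new Cre mouse beside the Myh11-CreERT2 mouse.

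A cell that divides first loads the MCM helicase onto its DNA, with Cdc6 as a loader, then copies the DNA with the sliding clamp PCNA and nucleotides made by ribonucleotide reductase and thymidylate synthase. These genes are switched on by E2F factors before S phase, whereas cyclins A and B, Cdk1, the spindle kinases and the kinesins follow later, through the factors FoxM1 and B-Myb bound with the MuvB complex. In a resting adult aorta smooth muscle cells divide rarely, while immature lymphocytes, above all thymocytes, divide fast.

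The promoters of members from each role are shown because the groups described below divide by role, and because each role is known for its own promoter elements. The windows come from RefSeq on GRCm38.p6, run 5′ to 3′ on the gene's strand from position -140 to position -1 before the annotated start, and have in capitals every match on either strand to the CHR (TTTGAA), the CCAAT box (CCAAT) and 4 E2F site forms (TTTGGCGC, TTTCCCGC, TTTGCCGC and TTTCGCGC), or their reverse complements. In the first stretch of capitals in Mcm6, matches to E2F forms on both strands overlap.
Mcm6 promoter, chr1:128359706-128359845, minus strand: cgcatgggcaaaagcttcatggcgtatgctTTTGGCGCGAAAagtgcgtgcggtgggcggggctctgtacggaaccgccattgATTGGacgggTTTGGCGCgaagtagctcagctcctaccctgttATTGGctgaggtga
Cdk1 promoter, chr10:69352913-69353052, minus strand: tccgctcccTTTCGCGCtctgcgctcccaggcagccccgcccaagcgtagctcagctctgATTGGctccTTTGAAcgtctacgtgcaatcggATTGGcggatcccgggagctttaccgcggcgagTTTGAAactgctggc
Cdc20 promoter, chr4:118437344-118437483, minus strand: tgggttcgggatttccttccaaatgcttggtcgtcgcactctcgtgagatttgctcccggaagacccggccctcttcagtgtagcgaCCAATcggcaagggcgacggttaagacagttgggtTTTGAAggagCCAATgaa
Kif11 promoter, chr19:37376242-37376381, plus strand: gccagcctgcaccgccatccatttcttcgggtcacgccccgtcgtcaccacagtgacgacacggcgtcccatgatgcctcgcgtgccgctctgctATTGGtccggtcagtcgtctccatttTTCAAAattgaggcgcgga
Top2a promoter, chr11:99024190-99024329, minus strand: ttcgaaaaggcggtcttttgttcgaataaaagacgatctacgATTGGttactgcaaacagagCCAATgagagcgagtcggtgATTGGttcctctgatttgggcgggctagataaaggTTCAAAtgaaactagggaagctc
RefSeq windows from 250 bases before to 50 bases after the start were matched for 28 of the 34 genes, and none was matched for Mcm4, Ccna2, Aurkb, Foxm1, Kif20a and Tpx2. In these 300-base windows an E2F form stood in 6 of 12 replication genes (Mcm3, Mcm5, Mcm6, Mcm7, Cdc6 and Uhrf1), in 1 of 9 mitotic control genes (Cdk1) and in 0 of 7 machinery genes, against 2.61% of all 27025 genes with a window. The CHR letters stood in 1 of 12 replication genes (Mcm2), in 6 of 9 control genes and in 5 of 7 machinery genes, against 20.2% of all genes. The CCAAT box stood in 23 of the 28 genes, against 41.1% of all genes. In the windows shown, the CHR began at position -15 and again at -71 in Cdk1, at -18 in Cdc20, at -19 in Kif11 and at -23 in Top2a. Across the 28 genes a match overlapped one to another motif only in Mcm7, where an E2F form meets a CCAAT box. A match is a run of letters and was not tested as a binding site.

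The 9 libraries held 31419238 to 42497543 counts each. Smooth muscle markers (Acta2, Myh11, Tagln, Cnn1, Smtn, Myocd) summed to 867 to 3123 CPM, the count scaled to the same library total for all, after aligning libraries by TMM, a trimmed mean of ratios. Rag1, the recombinase of developing lymphocytes, was at 477 CPM in Itga8-Cre 3 and at 274 and 233 CPM in Myh11-Cre 1 and 2. In the other 6 libraries it varied widely, from 0.443 to 130 CPM. The limit of 200 CPM that sets the former 3 libraries apart was chosen after seeing the data. The medians of the 34 genes and of the further cell cycle lists are therefore given with and without these libraries. Fewer cells of a type and less RNA per cell cannot be told apart in such whole-tissue samples. The labels number the mice and do not say whether they were littermates or processed together.

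All 34 genes were detected in every library, with at least 42 counts. Per kilobase of exon, the highest level in the Wild Type aortae was that of Pcna, at 9.05 CPM per kb, followed by Mki67 at 5.36, Mcm6 at 5.20 and Mcm4 at 4.92 CPM per kb. The lowest were Bub1 at 0.517, Ccnb1 at 0.543 and Cdc6 at 0.587 CPM per kb. On the per-length scale, 3 of the 4 highest were replication genes and 2 of the 3 lowest were mitotic control genes.

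The 34 genes varied mainly between mice within the Cre genotypes. Their summed level was 325, 380 and 375 CPM in Wild Type 1, 2 and 3, 300, 439 and 1021 CPM in Itga8-Cre 1, 2 and 3, and 794, 538 and 300 CPM in Myh11-Cre 1, 2 and 3. The mean was 360 ± 30.2 CPM for Wild Type, 587 ± 383 for Itga8-Cre and 544 ± 247 for Myh11-Cre (SD, n = 3 each). The Wild Type libraries lay close together, while each Cre genotype had libraries both above and below them. The median coefficient of variation over the 34 genes was 69.7% within Itga8-Cre, 54.0% within Myh11-Cre and 13.3% within Wild Type, beside 20.6%, 16.5% and 12.8% for all genes tested.

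The same libraries were high for nearly every gene. Itga8-Cre 3 was the highest of the 9 libraries for 32 of the 34 genes, the exceptions being Cdc6, highest in Myh11-Cre 1, and E2f1, highest in Myh11-Cre 2. Itga8-Cre 3 lay above all 3 Wild Type libraries for 34 genes, Myh11-Cre 1 and Myh11-Cre 2 for 33 each, and Itga8-Cre 2 for 30. Itga8-Cre 1 lay below all 3 Wild Type libraries for 26 genes and Myh11-Cre 3 for 20. Relative to the Wild Type mean, the median gene stood at 0.78, 1.22 and 2.91 in Itga8-Cre 1, 2 and 3 and at 2.34, 1.46 and 0.77 in Myh11-Cre 1, 2 and 3.

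**Figure D1:**
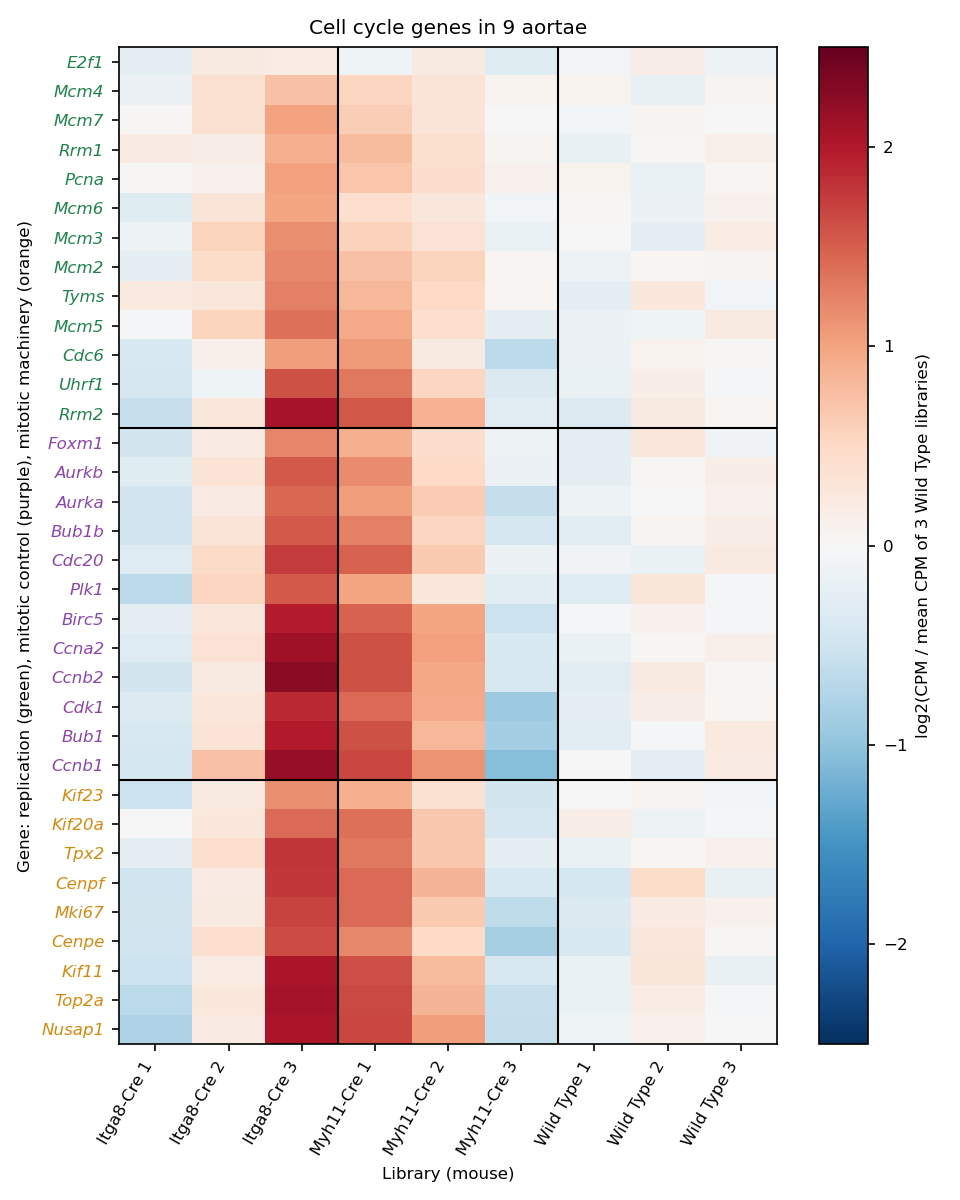
Level of each of the 34 genes (rows, grouped by role) in each library (columns), as the log2 ratio of its CPM to the mean of the 3 Wild Type libraries; red is higher and blue lower. Itga8-Cre 3 and Myh11-Cre 1 are red for nearly all rows, Itga8-Cre 1 and Myh11-Cre 3 are mostly blue, and E2f1 varies little.

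Among the replication genes, Rrm1, the large subunit of ribonucleotide reductase (chr7:102441695-102469771, GRCm38), stood at 25.8, 30.2 and 32.3 CPM in Wild Type 1, 2 and 3. It was at 33.97, 33.2 and 55.3 CPM in Itga8-Cre 1, 2 and 3, and at 50.9, 38.9 and 31.02 CPM in Myh11-Cre 1, 2 and 3. Every Itga8-Cre library was above every Wild Type library for Rrm1, by a margin of under 1 CPM between the closest, and Myh11-Cre 3 overlapped with Wild Type. Its small subunit Rrm2, whose level rises in S phase in dividing cells, was at 5.85, 8.65 and 7.63 CPM in Wild Type, 4.92, 8.99 and 30.6 for the Itga8-Cre mice and 21.7, 13.4 and 6.04 for the Myh11-Cre mice (mice 1, 2 and 3 in each case, as in the values that follow). Rrm2 therefore spanned 6.23-fold over the 9 libraries and Rrm1 2.14-fold, although both subunits form the same enzyme.

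Pcna, the clamp that holds the polymerase on DNA, was at 23.2, 19.5 and 22.5 CPM in Wild Type, 22.2, 23.3 and 44.5 for the Itga8-Cre mice and 35.03, 29.6 and 23.3 for the Myh11-Cre mice. The lowest Myh11-Cre library lay just above the highest Wild Type one for Pcna. Mcm6, a subunit of the helicase, was at 24.8, 21.9 and 26.1 CPM in Wild Type, 19.8, 30.3 and 48.1 for the Itga8-Cre mice and 32.7, 29.5 and 23.0 for the Myh11-Cre mice. Mcm7 was at 18.6, 20.4 and 19.5 CPM in Wild Type, 19.9, 25.4 and 39.0 for the Itga8-Cre mice and 29.8, 24.3 and 19.5 for the Myh11-Cre mice. Both helicase subunits were high in Itga8-Cre 3 and, to a lesser degree, in Myh11-Cre 1, and both Cre genotypes overlapped with Wild Type.

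The other MCM subunits were likewise highest in Itga8-Cre 3 and next highest in Myh11-Cre 1. Mcm3 was at 13.4, 11.2 and 15.1 CPM in Wild Type, 12.1, 19.3 and 29.7 for the Itga8-Cre mice and 19.8, 16.9 and 11.7 for the Myh11-Cre mice. Mcm4 was at 18.8, 15.5 and 18.6 CPM in Wild Type, 16.01, 23.2 and 29.3 for the Itga8-Cre mice and 25.6, 22.0 and 18.7 for the Myh11-Cre mice. Mcm5 was at 10.7, 11 and 13.9 CPM in Wild Type, 11.4, 17.4 and 30.97 for the Itga8-Cre mice and 22.9, 15.8 and 10.1 for the Myh11-Cre mice. Over the 6 subunits of the helicase, the ratio of the highest to the lowest library ran from 1.89 for Mcm4 to 3.08 for Mcm5, a narrower range than that of Rrm2.

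Tyms, thymidylate synthase, was at 4.23, 6.08 and 4.81 CPM in Wild Type, 5.98, 6.17 and 12.0 for the Itga8-Cre mice and 8.98, 7.12 and 5.23 for the Myh11-Cre mice. Uhrf1, which carries DNA methylation through replication, was at 12.5, 15.7 and 13.6 CPM in Wild Type, 10.3, 12.9 and 42.1 for the Itga8-Cre mice and 34.6, 20.1 and 10.8 for the Myh11-Cre mice. Uhrf1 was the replication gene with the widest spread after Rrm2, at 4.07-fold, and its values are given here because of that spread. E2f1, a transcription factor that switches on replication genes (chr2:154559407-154569892), varied least. It was at 2.78, 3.28 and 2.65 CPM in Wild Type, 2.46, 3.37 and 3.30 for the Itga8-Cre mice and 2.71, 3.38 and 2.34 for the Myh11-Cre mice, which is a spread of 1.44-fold, the smallest among the 34 genes.

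The mitotic control genes spread further. Ccna2, cyclin A, was at 5.76, 6.69 and 7.08 CPM in Wild Type, 5.18, 8.38 and 28.3 for the Itga8-Cre mice and 19.5, 13.3 and 5 for the Myh11-Cre mice. Bub1b, a kinase-like protein of the spindle checkpoint, was at 7.16, 9.04 and 9.58 CPM in Wild Type, 6.09, 10.7 and 24.7 for the Itga8-Cre mice and 20.4, 12.5 and 6.41 for the Myh11-Cre mice. Cdc20, the activator of the anaphase-promoting complex that the checkpoint restrains, was at 3.30, 3.15 and 4.14 CPM in Wild Type, 2.83, 4.90 and 11.9 for the Itga8-Cre mice and 9.82, 5.57 and 3.18 for the Myh11-Cre mice. For these genes Itga8-Cre 1 lay below every Wild Type library, Itga8-Cre 2 and 3 lay above every one, and Myh11-Cre 1 and 2 likewise lay above.

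Ccnb1, cyclin B1, the partner that activates Cdk1 at mitotic entry (chr13:100778650-100786570), had the widest range of all 34 genes, 9.49-fold. It was at 2.26, 1.96 and 2.65 CPM in Wild Type, 1.69, 3.82 and 10.4 for the Itga8-Cre mice and 7.28, 4.96 and 1.09 for the Myh11-Cre mice. Cdk1 itself was at 2.69, 3.62 and 3.31 CPM in Wild Type, 2.52, 3.87 and 11.7 for the Itga8-Cre mice and 8.57, 6.17 and 1.72 for the Myh11-Cre mice. The kinase and its cyclin thus had the same high libraries and the same lowest library, Myh11-Cre 3; both were set out in full after their values were seen. Foxm1, the transcription factor of many mitotic genes, ranged least in this role, at 3.19-fold. It was at 3.27, 4.71 and 3.67 CPM in Wild Type, 2.83, 4.48 and 9.03 for the Itga8-Cre mice and 7.17, 5.25 and 3.54 for the Myh11-Cre mice. The other control genes (Ccnb2, Plk1, Aurka, Aurkb, Bub1 and Birc5) had ranges from 3.59-fold for Aurkb, the kinase of the chromosomal passenger complex, to 7.10-fold for the checkpoint kinase Bub1.

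In the mitotic machinery, Mki67, which coats mitotic chromosomes and is the common marker of dividing cells (chr7:135689784-135716361), was at 42.1, 62.0 and 57.7 CPM in Wild Type, 39.5, 62.9 and 174 for the Itga8-Cre mice and 145, 85.3 and 34.5 for the Myh11-Cre mice. Top2a, the topoisomerase that untangles sister chromosomes, was at 28.4, 36.3 and 31.2 CPM in Wild Type, 20.01, 38.5 and 136 for the Itga8-Cre mice and 101, 57.5 and 21.5 for the Myh11-Cre mice. Kif11, the kinesin that pushes spindle poles apart, was at 9.01, 12.4 and 8.88 CPM in Wild Type, 6.92, 11.5 and 41.2 for the Itga8-Cre mice and 30.9, 17.4 and 7.63 for the Myh11-Cre mice. In all of these the high libraries were Itga8-Cre 3, Myh11-Cre 1 and Myh11-Cre 2, while Itga8-Cre 1 and Myh11-Cre 3 lay below Wild Type. The remaining machinery genes, among them the centromere proteins Cenpe and Cenpf and the spindle factors Tpx2 and Nusap1, ranged from 3.24-fold for Kif23 to 6.96-fold for Nusap1.

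The roles differed in how far they spread. The median ratio of highest to lowest library was 2.66 for replication genes, 5.11 for mitotic control genes and 5.05 for machinery genes. In Itga8-Cre 3 the median gene stood at 2.07 times the Wild Type mean for replication, 3.51 times for control and 3.43 times for machinery. The summed level of both mitotic roles over that of replication was 0.74, 0.96 and 1.55 in Itga8-Cre, 1.54, 1.21 and 0.69 in Myh11-Cre, and 0.86, 1.11 and 0.94 in Wild Type. The balance of mitotic to replication transcripts was thus highest in the 3 libraries in which both sums were highest. Mki67 and Top2a kept a narrow ratio by comparison, from 1.28 in Itga8-Cre 3 to 1.97 in Itga8-Cre 1.

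**Figure D2:**
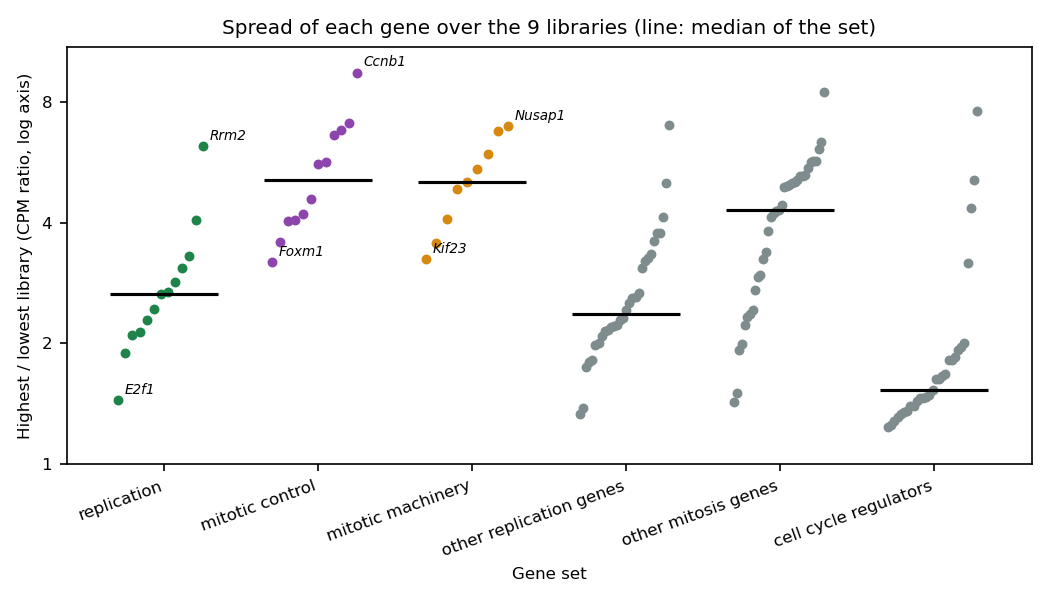
Ratio of the highest to the lowest library (CPM, log axis) for each gene, by role for the 34 genes (coloured) and for 3 further cell cycle lists (grey); lines are set medians. Replication genes centre on 2.66, mitotic control on 5.11 and machinery on 5.05, while upstream regulators centre on 1.53.

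Markers of other cell types moved with these levels. The 10 immature thymocyte markers, all 10 of which were tested, summed to 184, 340 and 120 CPM in Wild Type, 73.9, 130 and 1081 for the Itga8-Cre mice and 650, 524 and 165 for the Myh11-Cre mice. The libraries with the 3 highest thymocyte sums were the 3 with the highest cell cycle sums, in the same order. Itga8-Cre 1 was lowest in both, but its cell cycle sum of 299.6 CPM was close to the 300.02 CPM of Myh11-Cre 3. In Itga8-Cre 1 and 2 the thymocyte sum came mostly from Cd4, Cd8a, Cd8b1, Themis and Cd3e. Cd4 was at 19.1 and 31.7 CPM there, and Cd8a at 16.4 and 30.2 CPM. Rag1, Rag2, Ptcra and Arpp21 were lowest in Itga8-Cre 2. Rag1 was at 50.7, 130 and 15.95 CPM in Wild Type, 0.629, 0.443 and 477 for the Itga8-Cre mice and 274, 233 and 44.6 for the Myh11-Cre mice. The defining markers Rag2 and Ptcra had a count of 0 in Itga8-Cre 2. The 5 thymic epithelium markers summed to 129 to 159 CPM in Wild Type, 139 to 276 for the Itga8-Cre mice and 152 to 240 for the Myh11-Cre mice, but most of that sum was Ctsl, a protease of many tissues, at 121 to 188 CPM. The other 4 varied widely: Prss16, a thymic protease, was at 6.98, 14.9 and 0.390 CPM in Wild Type, 0.172, 0.387 and 62.5 for the Itga8-Cre mice and 31.004, 28.2 and 0.625 for the Myh11-Cre mice. Psmb11, the thymic proteasome subunit, had 1 count in each of Itga8-Cre 1 and 2 against 319 in Itga8-Cre 3, and Foxn1, the transcription factor of thymic epithelium, was at 0 in Itga8-Cre 1 and 2. Without Itga8-Cre 3, 4 of the 5 had a negative log2 fold change in Itga8-Cre against Wild Type, where all 5 were positive with it. The part of thymic cells in the levels of the cell cycle genes was not tested.

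The correspondence did not extend to every library. Itga8-Cre 2, with Rag1 at 0.443 CPM, had 30 of the 34 genes above all Wild Type libraries, and its Mki67, 62.9 CPM, was close to that of Wild Type 2, whose Rag1 stood at 130 CPM. Itga8-Cre 2 had the highest sum of the 6 B cell markers, at 433 CPM, against 178 and 299 CPM in the other Itga8-Cre libraries, 125 to 241 CPM in Wild Type and 101 to 212 CPM for the Myh11-Cre mice. Its macrophage marker sum, 967 CPM, was likewise the highest of the 9, where the others ran from 312 to 918 CPM, and the part of B cells and macrophages in these levels was not tested. The ratio of Mki67 to Rag1 was 62.8 in Itga8-Cre 1 and 142 in Itga8-Cre 2, and between 0.37 and 3.62 in the other libraries. Marrow precursor markers summed to 2.60 to 4.57 CPM in all 9 libraries, and 3 of those 6 markers passed the filter. Endothelial markers summed to 497 to 680 CPM, fibroblast markers to 593 to 1488 CPM, brown fat markers to 2122 to 7008 CPM and skeletal muscle markers to 78.9 to 9762 CPM.

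Smooth muscle and mesothelial markers differed between genotypes in another way. The 6 smooth muscle markers summed to 3123, 1846 and 1786 CPM in Wild Type, 1113, 1444 and 1277 for the Itga8-Cre mice and 867, 2232 and 2296 for the Myh11-Cre mice. All Itga8-Cre sums lay below all Wild Type sums, and all 6 markers had a negative log2 fold change in Itga8-Cre against Wild Type, with a median of -0.77 (-0.84 without Itga8-Cre 3 and -0.43 without Wild Type 1). In Myh11-Cre against Wild Type 5 of 6 were negative, with a median of -0.31 (0.05 without Myh11-Cre 1 and 0.12 without Wild Type 1). The 5 mesothelial markers, of the lining around organs, summed to 53.9, 28.2 and 25.6 CPM in Wild Type, 71.4, 61.6 and 67.6 for the Itga8-Cre mice and 76.5, 151 and 96.5 for the Myh11-Cre mice. Both Cre genotypes lay above Wild Type, with all 5 markers positive and median log2 fold changes of 0.82 and 1.25. In Itga8-Cre against Myh11-Cre the medians were -0.55 for smooth muscle markers, with 6 of 6 negative, and -0.70 for mesothelial markers, with 4 of 5 negative. edgeR and limma voom called 0 of these markers in any comparison. DESeq2 called 3 of the 5 mesothelial markers in Myh11-Cre against Wild Type, beside 4.44% of all 18660 genes it tested there, and 0 of these markers otherwise. The part of smooth muscle and mesothelial cells in the cell cycle levels was not tested.

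**Figure D3:**
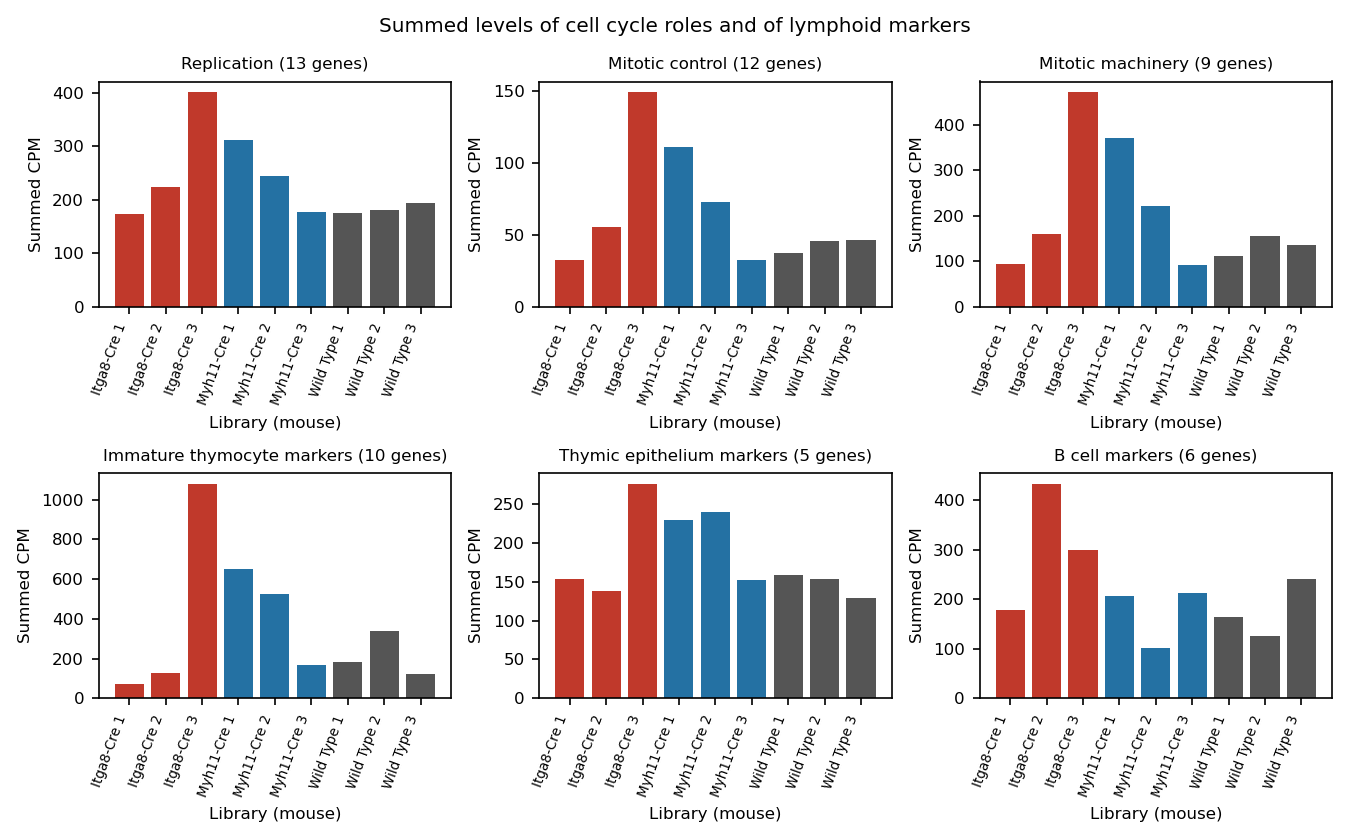
Summed CPM (bars, from 0) of the 3 cell cycle roles and of 3 marker lists in each library; colours are genotypes (Itga8-Cre red, Myh11-Cre blue, Wild Type grey). Itga8-Cre 3, Myh11-Cre 1 and Myh11-Cre 2 are highest for each cell cycle role and for the thymocyte markers, whereas B cell markers are highest in Itga8-Cre 2.

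The first comparison sets the new Cre mouse beside Wild Type. Against Wild Type, all 34 genes had a positive log2 fold change in Itga8-Cre, with a median of 0.73 and a range from 0.07 for E2f1 to 1.21 for Ccnb1, beside a median of 0.04 over all genes tested, -0.77 for the smooth muscle markers and 0.82 for the mesothelial markers. By role the medians were 0.53 for replication, 0.90 for mitotic control and 0.82 for machinery. By edgeR's quasi-likelihood test with Benjamini-Hochberg adjustment, 0 of 34 were called, with adjusted p from 0.699 to 0.939. An unadjusted p under 0.05 was reached by 0. With 3 mice per group this does not show that the genes were unchanged. DESeq2 and limma voom also called 0. Over all genes tested the share called was 0% by edgeR, 0% by limma voom and 0.166% by DESeq2, and unadjusted p under 0.05 took in 3.97% as higher and 2.81% as lower.

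Gene by gene, the log2 fold change with its standard error was 0.53 ± 0.24 for Mcm7, 0.68 ± 0.32 for Tyms, 0.47 ± 0.24 for Rrm1 and 0.62 ± 0.32 for Mcm3, the 4 genes with the smallest p. Mitotic genes had larger estimates with larger errors, such as 1.21 ± 0.75 for Ccnb1, 1.10 ± 0.65 for Ccna2, 1.02 ± 0.71 for Top2a and 0.77 ± 0.61 for Mki67. Rrm1 was the only one of the 34 whose Itga8-Cre libraries all lay above Wild Type, and 0 lay wholly below, against 5.76% and 5.37% of all genes tested. Without Itga8-Cre 3 the median of the 34 genes was 0.02, with 19 positive and 15 negative, and by role it was 0.14 for replication, 0.02 for control and -0.11 for machinery. Mki67 then stood at -0.09, Top2a at -0.14 and Rrm1 at 0.18. Without all 3 libraries with high Rag1 the median was 0.04. Without Itga8-Cre 3 the estimates therefore centred near 0, with the replication genes slightly above it. Leaving out Itga8-Cre 1, a library low for most of the 34 genes, moved the median the other way, to 1.05.

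In Myh11-Cre against Wild Type, 33 of the 34 genes had a positive log2 fold change, E2f1 being at -0.05, and the median was 0.61, beside 0.01 over all genes tested. The medians by role were 0.43 for replication, 0.79 for control and 0.72 for machinery. Again edgeR called 0 of 34, with adjusted p from 0.372 to 0.924 and 0 genes at an unadjusted p under 0.05, and DESeq2 and limma voom called 0. Over all genes tested the share called was 0% by edgeR, 0% by limma voom and 4.44% by DESeq2, and unadjusted p under 0.05 took in 6.93% as higher and 9.48% as lower. Both Cre genotypes were set against the same Wild Type libraries, so their estimates share those controls.

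The smallest p belonged to replication genes, Rrm1 at 0.45 ± 0.24, Pcna at 0.43 ± 0.27, Tyms at 0.50 ± 0.32 and Mcm4 at 0.33 ± 0.21 (log2 fold change and standard error). Mki67 stood at 0.71 ± 0.61, Top2a at 0.91 ± 0.71 and Foxm1 at 0.45 ± 0.42. Pcna was the only one of the 34 whose Myh11-Cre libraries all lay above Wild Type, and 0 lay wholly below, against 11.3% and 14.7% of all genes tested. The median of the 34 was 0.22 without Myh11-Cre 1 and 0.92 without Myh11-Cre 3. Without Itga8-Cre 3 it was 0.62, and Pcna and Rrm1 then had an unadjusted p under 0.05 by edgeR, with 0 called. In the fit of all 9 libraries 6.93% of all genes tested were higher at that threshold. The share without Itga8-Cre 3 is not given here. Without the 3 libraries with high Rag1 the median was -0.37, with 28 genes negative, but that leaves Myh11-Cre 3 alone in its group, and its variation is then assumed to equal that of the other groups.

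Between the Cre genotypes the estimates for the 34 genes lay near 0, with standard errors from 0.21 for Mcm4 to 0.73 for Ccnb1. Itga8-Cre against Myh11-Cre gave a median log2 fold change of 0.12, beside 0.01 over all genes tested, with estimates from -0.02 for Kif20a to 0.34 for Mcm3. Of the 34, 31 were positive by edgeR, 28 by DESeq2 and 22 by limma voom. All 3 tools called 0, edgeR's adjusted p ran from 0.710 to 0.999, and 0 had an unadjusted p under 0.05. Over all genes tested the share called was 0% by edgeR, 0% by limma voom and 0.109% by DESeq2, and unadjusted p under 0.05 took in 7.64% as higher and 1.83% as lower. The groups overlapped for all 34 genes, while 9.65% of all genes tested lay wholly higher and 3.07% wholly lower in Itga8-Cre. Mcm3 at 0.34 ± 0.32, Mcm7 at 0.20 ± 0.24, Mcm5 at 0.29 ± 0.39 and Mcm6 at 0.20 ± 0.28 had the smallest p (log2 fold change and standard error). The median was -0.60 without Itga8-Cre 3, with 33 of 34 negative, 0.53 without Myh11-Cre 1, 0.43 without Itga8-Cre 1, 0.30 without Itga8-Cre 2 and -0.21 without Myh11-Cre 3. Without the 3 libraries with high Rag1 it was 0.34, with 33 of 34 positive, and Myh11-Cre 3 is then alone in its group.

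**Figure D4:**
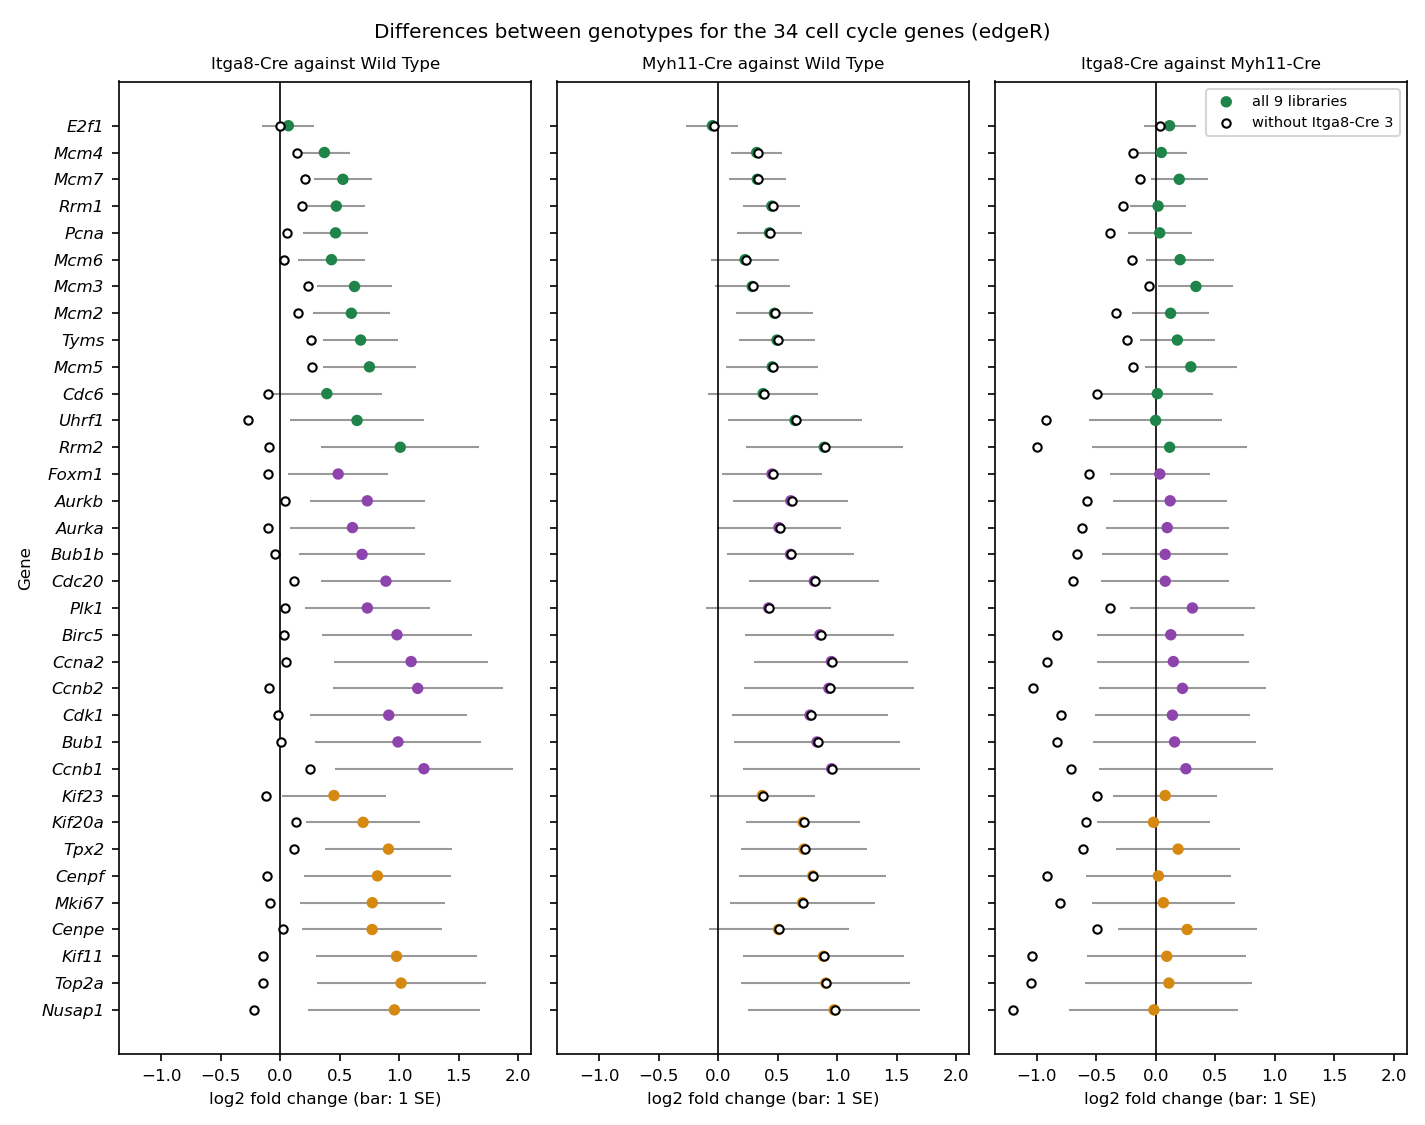
Log2 fold change (filled points, coloured by role, with bars of 1 standard error) of the 34 genes in the 3 comparisons of genotypes, and the same without Itga8-Cre 3 (open points). With Itga8-Cre 3 left out, the Itga8-Cre against Wild Type values centre on 0.02 and the Itga8-Cre against Myh11-Cre values on -0.60, while Myh11-Cre against Wild Type stays at 0.62.

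Most further genes of the same processes followed the same pattern. Itga8-Cre 3 was the highest library for 26 of 30 other replication genes and for 33 of 35 other mitosis genes. A list of 30 other replication genes had median log2 fold changes of 0.52, 0.35 and 0.19 in Itga8-Cre against Wild Type, Myh11-Cre against Wild Type and Itga8-Cre against Myh11-Cre, and a list of 35 other mitosis genes had 0.82, 0.60 and 0.16. Without Itga8-Cre 3 these medians were 0.11, 0.35 and -0.13 for replication and 0.07, 0.61 and -0.44 for mitosis. Without Myh11-Cre 1 they were 0.10 for replication and 0.20 for mitosis in Myh11-Cre against Wild Type, and 0.39 and 0.54 in Itga8-Cre against Myh11-Cre. Without Myh11-Cre 3 they were 0.54 and 0.95 in the former comparison and 0.01 and -0.13 in the latter. In Itga8-Cre against Myh11-Cre they were also 0.41 and 0.50 without Itga8-Cre 1, and 0.34 for mitosis without Itga8-Cre 2. Without the 3 libraries with high Rag1 they were 0.12, -0.24 and 0.32 for replication and 0.08, -0.43 and 0.47 for mitosis.

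In these lists edgeR, DESeq2 and limma voom called 0 genes in any comparison. At an unadjusted p under 0.05, edgeR had 3 of 30 replication genes and 2 of 35 mitosis genes higher in Itga8-Cre than in Wild Type, beside 3.97% of all genes tested. It had 0 and 0 higher in Myh11-Cre than in Wild Type, beside 6.93%, and 1 mitosis gene lower in Itga8-Cre than in Myh11-Cre, beside 1.83%. Cdt1, the other loader of the MCM helicase, was at 4.55, 4.42 and 4.76 CPM in Wild Type, 5.52, 8.08 and 11.5 for the Itga8-Cre mice and 7.44, 6.08 and 5.21 for the Myh11-Cre mice. All libraries of both Cre genotypes lay above Wild Type for Cdt1, with a log2 fold change of 0.87 ± 0.26 and an adjusted p of 0.699 (edgeR's quasi-likelihood test) in Itga8-Cre. The others in Itga8-Cre were Rfc4, a subunit of the clamp loader, at 0.55 ± 0.22, Fen1, the flap nuclease, at 0.53 ± 0.23, Cenpa, the centromere histone, at 0.70 ± 0.27, and the kinase Melk at 1.03 ± 0.42. Pttg1, securin, was the mitosis gene lower in Itga8-Cre than in Myh11-Cre, at -0.28 ± 0.11. It departed from the pattern of the list, with its lowest level in Itga8-Cre 3 (21.2 CPM) and its highest in Myh11-Cre 3 (31.9 CPM).

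Other genes of these lists with the smallest p in a comparison had an unadjusted p above 0.05. Spc24, a kinetochore subunit, was at 1.07, 1.16 and 1.61 CPM in Wild Type, 1.34, 1.91 and 4.60 for the Itga8-Cre mice and 3.58, 2.43 and 1.67 for the Myh11-Cre mice. Gtse1, a microtubule-binding protein of G2 and S phase, was at 1.22, 1.35 and 1.12 CPM in Wild Type, 1.29, 1.99 and 3.78 for the Itga8-Cre mice and 2.68, 2.29 and 1.35 for the Myh11-Cre mice. For both, every Myh11-Cre library lay above Wild Type, as did 11.3% of all genes tested. The margin was narrow: Myh11-Cre 3 had 64 counts for Spc24 against 62 in Wild Type 3, and 52 for Gtse1 against 51 in Wild Type 2. The log2 fold changes were 0.99 ± 0.48 for Spc24 and 0.78 ± 0.41 for Gtse1 (standard error), and Gtse1 stood at 0.93 ± 0.41 in Itga8-Cre against Wild Type. Gins2, a subunit of the replicative helicase, was at 1.56, 1.69 and 1.43 CPM in Wild Type, 1.66, 1.71 and 2.83 for the Itga8-Cre mice and 2.68, 2.53 and 1.54 for the Myh11-Cre mice, a log2 fold change of 0.52 ± 0.30 in Myh11-Cre against Wild Type. In Itga8-Cre against Myh11-Cre, the polymerase alpha subunit Pola1 stood at 0.27 ± 0.19, Cdc7, the kinase that fires origins, at 0.40 ± 0.29, and Hjurp, the chaperone of Cenpa, at 0.16 ± 0.15. Without Itga8-Cre 3 the estimates for Pola1 and Cdc7 were 0.06 and 0.10.

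Most regulators upstream of these genes varied less between libraries than the 34 genes. Of 30 listed, 29 were tested, Cdkn2a being below the filter, and their median ratio of highest to lowest library was 1.53. Their median log2 fold changes were 0.15, 0.11 and 0.06 in the same order of comparisons, with 0 called by any of the 3 tools. With single libraries left out these medians ran from 0.04 (without Itga8-Cre 3) to 0.21, from 0.06 (without Myh11-Cre 1) to 0.15 and from -0.03 (without Itga8-Cre 3) to 0.12, and without the 3 libraries with high Rag1 they were 0.06, -0.01 and 0.08. Cyclin D1, Ccnd1, which links growth signals to the cycle, was at 37.7, 35.9 and 40.4 CPM in Wild Type, 32.7, 44.2 and 46.1 for the Itga8-Cre mice and 31.03, 51.9 and 46.3 for the Myh11-Cre mice. Ccnd2 was at 144, 109 and 105 CPM in Wild Type, 90.8, 117 and 102 for the Itga8-Cre mice and 86.5, 132 and 130 for the Myh11-Cre mice. Ccnd1 and Ccnd2 were at their lowest in Myh11-Cre 1, where the 34 genes were high, and both overlapped between genotypes. The remaining D cyclin, Ccnd3, went the other way, with its highest levels in Itga8-Cre 3 and Myh11-Cre 1. It was at 82.1, 87.7 and 69.7 CPM in Wild Type. It was at 73.2, 62.4 and 120 CPM for the Itga8-Cre mice and 91.0, 85.8 and 76.8 CPM for the Myh11-Cre mice.

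The inhibitor Cdkn1a, p21, had another order of libraries. It was at 14.7, 20.5 and 14.8 CPM in Wild Type, 41.6, 9.46 and 24.6 for the Itga8-Cre mice and 48.5, 19.7 and 25.6 for the Myh11-Cre mice. Cdkn1a was thus high in Itga8-Cre 1, where most of the 34 genes were low, and also in Myh11-Cre 1, where they were high. Its log2 fold change against Wild Type was 0.60 ± 0.50 in Itga8-Cre and 0.91 ± 0.51 in Myh11-Cre, with adjusted p of 0.759 and 0.390 (edgeR's quasi-likelihood test). It was 0.03 in Itga8-Cre without Itga8-Cre 1, 0.97 without Itga8-Cre 2, and 0.44 in Myh11-Cre without Myh11-Cre 1. Cdkn1b, p27, an inhibitor of resting cells, was at 50.1, 49.4 and 53.6 CPM in Wild Type, 52.6, 60.9 and 68.9 for the Itga8-Cre mice and 54.7, 58.6 and 51.8 for the Myh11-Cre mice.

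At an unadjusted p under 0.05, 3 of 29 regulators were higher in Itga8-Cre than in Wild Type, beside 3.97% of all genes tested, 2 were higher in Myh11-Cre than in Wild Type, beside 6.93%, and 2 were lower in Itga8-Cre than in Myh11-Cre, beside 1.83%. In Itga8-Cre against Wild Type these were Cdk4, the partner of the D cyclins, at 0.22 ± 0.09, Rbl1, the pocket protein p107, at 0.50 ± 0.21, and Cdkn1b at 0.25 ± 0.11 (log2 fold change and standard error). In Myh11-Cre against Wild Type they were E2f6, a repressor of the E2F family, at 0.59 ± 0.17, and Tfdp2, a partner of E2F factors, at 0.34 ± 0.12, and in Itga8-Cre against Myh11-Cre these genes stood at -0.43 ± 0.17 and -0.33 ± 0.12. Tfdp1, another E2F partner, came next in Myh11-Cre against Wild Type, at 0.34 ± 0.16. E2f6 was at 29.5, 29.4 and 27.0 CPM in Wild Type, 30.3, 30.3 and 35.04 for the Itga8-Cre mice and 32.6, 42.6 and 53.9 for the Myh11-Cre mice. The Myh11-Cre libraries overlapped with Itga8-Cre but not with Wild Type, with an adjusted p of 0.218 against Wild Type by edgeR's quasi-likelihood test. E2f6 was highest in Myh11-Cre 3, the library in which 20 of the 34 genes lay below Wild Type. Within the E2F family only E2f2 and E2f8 among the listed members E2f1 to E2f8 had a spread above 4-fold, at 4.35 and 7.62. E2f2, an activator known from lymphoid cells, was at 10.2, 13.0 and 8.61 CPM in Wild Type, 8.35, 11.3 and 36.1 for the Itga8-Cre mice and 30.6, 16.9 and 8.31 for the Myh11-Cre mice, and it was set out after its values were seen.

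Some counts could hold reads of neighbouring genes, since the sources used here do not give whether strand was used in counting. In GENCODE M21, Kif20a shares 29.3% of its exon bases with Cdc23 on the opposite strand, Ccna2 12.5% with Exosc9, Mcm7 7.25% with Ap4m1 and Plk1 7.09% with Gm44985. The values of these genes, Kif20a above all, are uncertain to that extent. Processed copies listed in the count table held few counts in all 9 libraries together, with 17 for Pcna-ps2, 4 for Tyms-ps, 8 for Ccnb1-ps and 83 for Ccnb2-ps, beside 1482 for Ccnb2 itself.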

How the data were processed

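RNA of 9 whole mouse aortae was sequenced from stranded, polyadenylated libraries. The authors deposited whole-number counts per gene, which were used for every result; a second deposited table of normalized counts was not used. Per the submitters' processing notes, the build was GRCm38.p6 and the tools, whose roles are not named, were Salmon 0.13.1, STAR 2.7.0f, fastp 0.20.0, featureCounts, Subread 1.6.4 and DESeq2. The sources used here do not state the annotation release or the strand setting of the counting.

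In R 4.3.3, genes passing filterByExpr by group (19412 of 55453) were fitted with edgeR 4.0.16 (TMM factors, group means over all 9 libraries, robust quasi-likelihood F test, Benjamini-Hochberg adjustment over all genes tested, threshold 0.05; common biological coefficient of variation 0.294). The label-given groups were compared in 3 pairs. The standard error given with a log2 fold change was the absolute change divided by the square root of the F statistic. The same data went through limma 3.58.1 (voom) and DESeq2 1.42.0. TMM-scaled library sizes gave the CPM values, and levels per kilobase used the merged exon length in GENCODE M21. Depth was 31419238 to 42497543 counts per library, and the lowest count of any of the 34 genes was 42. Counts were also simulated for 19412 genes, with each gene's level and spread estimated over all 9 libraries. Randomly chosen genes were raised in Itga8-Cre. Against Wild Type, edgeR recovered 29% of 2-fold and 75% of 4-fold changes with 6 false calls, and DESeq2 51% and 88% with 58. Genes were drawn independently there, with the same spread in every group. The 34 genes had a median coefficient of variation of 69.7% within Itga8-Cre, beside 20.6% for all genes tested. The recovered shares were not measured for such genes.

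The 34 genes, the 3 other cell cycle lists and the 11 marker lists were chosen with earlier results of these data known, so no list was tested. Full values were given for the 3 genes of each role with the highest mean CPM, up to 4 members with the smallest p in each comparison, and E2f1, Foxm1 and Mki67, and levels or fold changes, not always both, for up to 3 genes with the smallest p in each comparison from each other cell cycle list, with Cdkn1a, Cdkn1b, Ccnd1 and Ccnd2 in any case; others were added after their values were seen. Rrm2, Uhrf1, Ccnb1, Cdk1, E2f2, E2f8 and Ccnd3 are such additions. Alternatives were other size factors (RLE), other tools, no filter on low counts, a block for mouse number, fits on the 2 groups compared and leaving out each library, and, after seeing the data, leaving out the 3 libraries with Rag1 above 200 CPM.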

Additional observations from a re-analysis of the deposited data

How the results depend on the processing

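The number of the 34 genes called was 0 in each of the 3 comparisons under every alternative run. The median log2 fold change of the 34 genes ranged from 0.024 (without Itga8-Cre 3) to 1.05 when single libraries were left out in Itga8-Cre against Wild Type, from 0.22 to 0.92 in Myh11-Cre against Wild Type, and from -0.60 to 0.53 in Itga8-Cre against Myh11-Cre, where it is negative without Itga8-Cre 3 or Myh11-Cre 3. Without the 3 libraries with high Rag1, a choice made after seeing the data, it was 0.036 in the first comparison, -0.37 in the second and 0.34 in the third; the cause was not tested. Of 71 results for single named genes, with 1065 values under other settings, 1047 kept their direction and their side of the threshold and 18 changed sign, 17 of them on leaving out a library.

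Leaving out single libraries gave ranges that cross 0 in Itga8-Cre against Wild Type for Bub1b (-0.044 to 1.04), Mki67 (-0.088 to 1.14), Top2a (-0.14 to 1.44), Kif11 (-0.15 to 1.38), E2f1 (-0.014 to 0.20) and Foxm1 (-0.099 to 0.80). In Myh11-Cre against Wild Type they did for E2f1 (-0.20 to 0.070) and Ccnd2 (-0.13 to 0.14), and in Itga8-Cre against Myh11-Cre for Mcm3 (-0.058 to 0.60), Mcm7 (-0.13 to 0.39), Mcm5 (-0.19 to 0.62), Mcm6 (-0.20 to 0.46) and Mki67 (-0.80 to 0.62).

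With mouse number as a replicate block, the count of called genes stayed 0, and in Itga8-Cre against Myh11-Cre the median was -0.0023 and Mki67 stood at -0.079. The numbers were not taken as pairing the mice, since the labels name no shared factor. The residuals of libraries sharing a number correlated at 0.03 to 0.40, above 0.1 in 5 of 9 pairs. Those of libraries with different numbers correlated at -0.35 to 0.24. Whether mice of the same number shared a factor was not tested. Standard errors of the 34 genes, from 0.21 for Mcm4 to 0.75 for Ccnb1 on the log2 scale against Wild Type, limit what could be called.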
